A study of Homo sapiens with 12 samples.

Results

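The genes of the cyclin-dependent kinase (CDK) inhibitors CDKN1A, CDKN1B, CDKN1C, CDKN2A, CDKN2B, CDKN2C and CDKN2D, together with the phosphatase gene CDKN3 that carries the same family symbol, were read out in A549 cells. The 8 genes were taken by symbol from the merged gene count table and are 8 of 60664 gene identifiers counted. Each had 1 row in that table, equal in all 12 libraries to the transcript-strand counts, and no gene was absent. CDKN2A and CDKN2B had 0 counts in every library. The other 6 genes passed the filter on low counts, as did 13838 genes in all.

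A549 is a human lung adenocarcinoma line. Both lines compared carry a tet-inducible DYRK1B transgene, either wild type (WT) or with the mutation Y273F, which replaces the tyrosine that the kinase phosphorylates in its own activation loop. The groups, each of 3 libraries, are WT line with doxycycline, WT line control, Y273F line with doxycycline and Y273F line control; doxycycline was given at 2 µg/ml over 7 days in culture and control wells had none. Cells without a transgene are not among the samples, so doxycycline itself and induced DYRK1B cannot be told apart, and the labels do not say whether a line is a clone.

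CDK inhibitors restrain the kinases that drive cells from G1 into S phase and on to mitosis. The Cip/Kip proteins p21 (CDKN1A), p27 (CDKN1B) and p57 (CDKN1C) bind whole cyclin-CDK complexes, and p21 and p27 also help cyclin D to assemble with CDK4 or CDK6. The INK4 proteins p16 and p15 (CDKN2A and CDKN2B), p18 (CDKN2C) and p19 (CDKN2D) bind CDK4 and CDK6 alone and keep cyclin D away. CDKN2A also encodes p14ARF, a protein that restrains the ubiquitin ligase MDM2. CDKN3 removes the activating phosphate from CDK2 and CDK1, and its mRNA is known to peak late in the cell cycle. CDKN1A is a usual marker of senescent cells. DYRK1B is known to phosphorylate p27 and cyclin D1 in quiescent cells, which acts on the proteins and is not read by mRNA counts.

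Libraries carry the numbers 1 to 12 in their names: WT control 1 to 3 are libraries 1, 2 and 3, WT doxycycline 1 to 3 are 4, 5 and 6, Y273F control 1 to 3 are 7, 8 and 9, and Y273F doxycycline 1 to 3 are 10, 11 and 12. Values are given by these labels and also by the library sets 2/6/10, 4/8/12, 3/7/11 and 1/5/9, each of which cuts across the labelled groups. DYRK1B, the gene to be induced, was highest in the libraries labelled WT doxycycline 1 (28.0 CPM), Y273F doxycycline 3 (19.7 CPM) and Y273F control 2 (12.4 CPM), which are 4, 12 and 8, against 2.60 to 7.73 CPM in the other 9. It thus followed the labels only in part: library 8 is labelled control, and libraries 5, 6, 10 and 11, labelled doxycycline, were not among the high ones. These values rest on 13 to 197 counts per library. Whether tags of the transgene are counted as DYRK1B was not tested. Libraries 2 (labelled WT control 2), 6 (labelled WT doxycycline 3) and 10 (labelled Y273F doxycycline 1) lay far from the rest. On the first principal component (66.3% of variance) they were at 42.7 to 46.9, against at most -4.74 for the other libraries. Groups below are groups as labelled, no condition is assigned to a set, and results are given with and without libraries 2, 6 and 10. Total counts were 2815673 to 22319921 per library, with a median of 7667958. CPM are counts relative to a library total of 1000000, scaled by TMM factors. The libraries are 3' tags, about 1 tag per transcript whatever its length, so CPM of different genes can be set side by side.

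Promoter windows from RefSeq (GRCh38.p14, 250 bases before to 50 after a start site) were found for 7 of the 8 genes, in 10 windows; CDKN1C has no entry. The 3 shown belong to CDKN1A, 1 of 2 genes that were high in libraries 2, 6 and 10, and to CDKN1B and CDKN3, which were low there, described in the results that follow. Capitals mark matches, on either strand, of 5 motifs: E2F (TTTNNCGC), CHR (TTTGAA, the cell cycle homology region of late cell cycle genes), the CCAAT box by its letters, GC box (GGGCGG) and FOXO (TGTTTAC). CDKN1A lies at chr6:36678464-36678763, CDKN1B at chr12:12717118-12717417 and CDKN3 at chr14:54396757-54397056, all on the plus strand and written 5′ to 3′.
CDKN1A: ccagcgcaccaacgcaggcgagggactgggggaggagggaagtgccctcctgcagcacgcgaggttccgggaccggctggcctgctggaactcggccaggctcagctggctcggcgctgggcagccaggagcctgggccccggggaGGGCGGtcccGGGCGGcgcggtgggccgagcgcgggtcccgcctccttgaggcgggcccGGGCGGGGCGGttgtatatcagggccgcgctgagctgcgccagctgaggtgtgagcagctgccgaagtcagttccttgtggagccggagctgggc
CDKN1B: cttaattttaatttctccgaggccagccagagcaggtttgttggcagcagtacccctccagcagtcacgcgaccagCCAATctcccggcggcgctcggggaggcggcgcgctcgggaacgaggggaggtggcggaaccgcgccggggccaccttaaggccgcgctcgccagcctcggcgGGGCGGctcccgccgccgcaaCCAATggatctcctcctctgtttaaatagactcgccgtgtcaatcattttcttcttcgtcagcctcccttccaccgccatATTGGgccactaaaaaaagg
CDKN3: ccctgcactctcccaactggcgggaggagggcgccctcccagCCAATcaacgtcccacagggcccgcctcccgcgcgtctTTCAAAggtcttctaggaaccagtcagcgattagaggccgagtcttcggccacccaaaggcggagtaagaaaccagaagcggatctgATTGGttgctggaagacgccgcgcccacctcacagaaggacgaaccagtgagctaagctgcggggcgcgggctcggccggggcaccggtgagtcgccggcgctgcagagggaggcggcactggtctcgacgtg
The CDKN1A window held 4 GC boxes, of which 2 share a base and run together as GGGCGGGGCGG, and none of the other motifs. The CDKN1B window held 3 CCAAT boxes and 1 GC box. The CDKN3 window held 2 CCAAT boxes and 1 CHR, 170 to 165 bases before the start, on the minus strand (printed as TTCAAA), and no GC box. Of all 35116 RefSeq windows of the same length, 45% held a GC box, 34.6% a CCAAT box, 15.2% a CHR and 6.89% the E2F motif. No FOXO motif lay in any of the 10 windows; 3.42% of all windows held one. A match is a string of letters and not a measured binding site, and a window without one says nothing of elements farther away.

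By labels, none of the 6 tested CDK inhibitor genes passed an adjusted p of 0.05 for doxycycline in either line, for the difference of these effects or between the lines (edgeR's quasi-likelihood test, Benjamini-Hochberg over 13838 genes). Of all genes 0%, or 0 genes, passed in each of the 4 comparisons. At an unadjusted p under 0.05 there were 134 genes for doxycycline in the WT line, 225 in the Y273F line, 165 for the difference of these effects and 460 between the controls of the lines, and none of the 6. CDKN1A had the widest intervals of the 6 genes in all 4 comparisons. The comparison in each line asks what differs between libraries labelled doxycycline and control. The difference asks whether this is unequal in the lines, and the comparison of controls asks how the lines differ without doxycycline. The first of these share their controls with the last, so their values are not independent. By the same labels DYRK1B had a log2 fold change of 1.44 (SE 0.81, edgeR adjusted p = 0.9998) in the WT line. In the Y273F line it was 0.88 (SE 0.82, edgeR adjusted p = 0.9923). The gene to be induced thus did not pass either, and the labelled tests are not read as showing no effect of doxycycline.

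**Figure D1:**
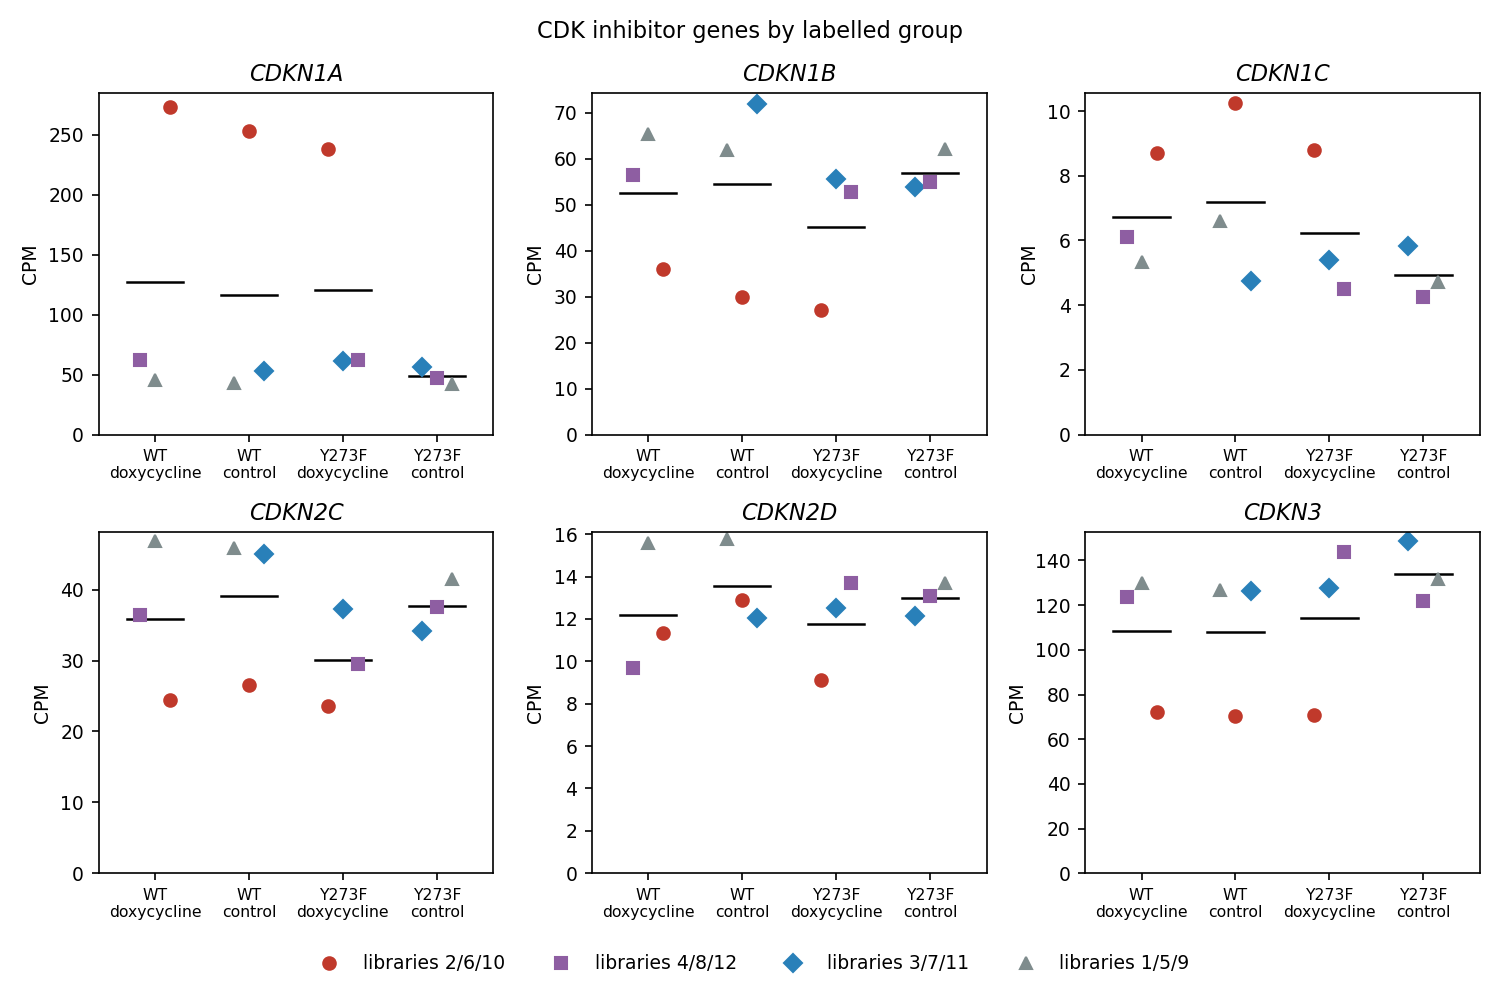
CPM (vertical axis, from 0) of the 6 expressed CDK inhibitor genes in the 4 labelled groups; each point is 1 library, the line is the mean of 3, and colour and shape give the library set. Within each labelled group that has one, the library of set 2/6/10 lies far above the others for CDKN1A, at 238 to 273.004 CPM, and below them for CDKN1B, CDKN2C and CDKN3.

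CDKN1A (ENSG00000124762, chromosome 6, 36676463 to 36687332), which encodes p21, was the most variable of the 6 genes, with a 6.41-fold range over the libraries. It had 62.0, 45.9 and 273.004 CPM in the libraries labelled WT doxycycline 1 to 3, against 43.0, 253 and 52.8 CPM in WT control 1 to 3. The Y273F libraries had 238, 61.3 and 62.3 CPM with doxycycline, against 56.0, 47.4 and 42.6 CPM in control. The 3 high values were thus spread over 3 labelled groups, and the Y273F control group had none. The WT groups overlapped, while the Y273F doxycycline libraries all lay above the Y273F controls.

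The WT doxycycline libraries averaged 127 ± 127 CPM and the WT controls 116 ± 119 CPM (SD, n = 3 each). The log2 fold change was 0.13 (SE 0.81, 95% interval -1.64 to 1.91, edgeR adjusted p = 0.9998). In the Y273F line the means were 121 ± 102 CPM with doxycycline and 48.6 ± 6.80 CPM in control (SD, n = 3 each). Here it was 1.30 (SE 0.82, interval -0.50 to 3.09, edgeR adjusted p = 0.9923). The WT effect minus the Y273F effect was -1.16 (SE 1.15, edgeR adjusted p = 0.9997), and Y273F control against WT control was -1.25 (SE 0.82, adjusted p = 0.9942). Without libraries 2, 6 and 10, an alternative added after the data were seen, the Y273F effect was 0.35 (SE 0.17, interval -0.02 to 0.72, edgeR adjusted p = 0.9993). The WT effect was then 0.17 (SE 0.18), its difference from the Y273F effect -0.18 (SE 0.25), and the line difference 0.01 (SE 0.17). The line difference was 0.02 without the library labelled WT control 2 alone, and the Y273F effect 0.35 without the library labelled Y273F doxycycline 1 alone. The WT effect was -1.10 without WT doxycycline 3, -0.26 and -0.22 without WT control 1 or 3, and 1.40 without WT control 2, none past the threshold.

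For doxycycline against control in the Y273F line, CDKN1A alone of the 6 genes had groups that did not overlap, where 10.9% of all tested genes had such groups, so a count of 1 of 6 lies near the background. In the WT line the count was 0 of 6, against 3.27% of all genes, and between the controls of the lines 0 of 6, against 10.8%.

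CDKN1B (ENSG00000111276, chromosome 12, 12717368 to 12722369), the p27 gene, had 56.5, 65.3 and 36.0 CPM in WT doxycycline 1 to 3, against 61.8, 29.8 and 71.9 CPM in WT control 1 to 3. In the Y273F line it had 27.1, 55.6 and 52.7 CPM with doxycycline, against 53.7, 54.9 and 62.0 CPM in control. The lowest value of each of the first 3 groups came from a library in which CDKN1A was high. The log2 fold change was -0.06 in the WT line (SE 0.34, interval -0.79 to 0.68) and -0.32 in the Y273F line (SE 0.34, interval -1.07 to 0.42), with edgeR adjusted p = 0.9998 and 0.9923. The difference of these effects was 0.26 (SE 0.48), and Y273F control against WT control was 0.06 (SE 0.34). Without libraries 2, 6 and 10 the effect was -0.13 (SE 0.13) in the WT line and -0.08 (SE 0.13) in the Y273F line, the difference of the effects was -0.06 (SE 0.18) and the line difference -0.23 (SE 0.12, edgeR adjusted p = 0.8875).

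CDKN1C (ENSG00000129757, chromosome 11, 2883218 to 2885775), the p57 gene and an imprinted locus in humans, was the lowest of the 6 genes, with 568 counts over all libraries. It had 6.12, 5.33 and 8.69 CPM in WT doxycycline 1 to 3, against 6.59, 10.2 and 4.75 CPM in WT control 1 to 3. The Y273F libraries had 8.78, 5.38 and 4.49 CPM with doxycycline, against 5.82, 4.25 and 4.73 CPM in control. The groups overlapped in both lines and between the controls, and the highest value of each of the first 3 groups again came from libraries 2, 6 and 10. The log2 fold change was -0.08 in the WT line (SE 0.35), 0.28 in the Y273F line (SE 0.36) and -0.51 between the controls of the lines (SE 0.35), with a difference of the effects of -0.37 (SE 0.50). Without libraries 2, 6 and 10 the first 3 were 0.01, -0.03 and -0.19, and the difference 0.04 (SE 0.42). Its lowest library held 13 counts, with a 95% Poisson interval of 2.26 to 7.26 CPM, which covers counting error only.

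Of the INK4 genes, CDKN2C (ENSG00000123080, chromosome 1, 50960745 to 50974634), which encodes p18, had 36.4, 46.9 and 24.4 CPM in WT doxycycline 1 to 3, against 45.9, 26.5 and 45.0 CPM in WT control 1 to 3. It had 23.5, 37.3 and 29.5 CPM in the Y273F doxycycline libraries, against 34.2, 37.6 and 41.5 CPM in Y273F control. Its groups overlapped in every comparison. The log2 fold change was -0.13 (SE 0.27) for doxycycline in the WT line, -0.32 (SE 0.27) in the Y273F line, 0.19 (SE 0.38) for their difference and -0.06 (SE 0.27) between the controls of the lines. Leaving out libraries 2, 6 and 10 gave values of -0.12 (SE 0.16), -0.19 (SE 0.16), 0.07 (SE 0.23) and -0.27 (SE 0.15, edgeR adjusted p = 0.893).

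CDKN2D (ENSG00000129355, chromosome 19, 10566460 to 10568979), which encodes p19, varied least of the 6, with a 1.72-fold range. It had 9.67, 15.6 and 11.3 CPM in WT doxycycline 1 to 3, against 15.8, 12.9 and 12.0 CPM in WT control 1 to 3. The Y273F values were 9.14, 12.5 and 13.7 CPM with doxycycline, against 12.1, 13.1 and 13.7 CPM in control. No group stood clear of the one it was compared with. The log2 fold change was -0.15 (SE 0.22) in the WT line, -0.12 (SE 0.22) in the Y273F line, -0.03 (SE 0.31) for their difference and -0.07 (SE 0.22) between the controls of the lines. With libraries 2, 6 and 10 left out these values were -0.13, 0.02, -0.14 and -0.10 (SE 0.22 to 0.33).

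CDKN2A (ENSG00000147889, chromosome 9, 21967752 to 21995324) and CDKN2B (ENSG00000147883, chromosome 9, 22002903 to 22009313), the p16/p14ARF and p15 genes, gave 0 counts on both strands in all 12 libraries. A count of 0 allows up to 0.133 to 1.05 CPM in a single library (3 counts), and up to 0.0307 CPM over the 97525578 counts of all libraries. A549 is known to lack this locus by homozygous deletion. Genes on either side of the 2 were read out too, each on its own transcript strand, in a window of 500000 bases each way. In it 14 of 17 RefSeq genes had an identifier in the files and 7 of these had 0 counts, CDKN2A and CDKN2B included. The others at 0 were the long noncoding RNA CDKN2A-AS1 and the pseudogenes H3P30, KHSRPP1, TUBB8P1 and UBA52P6. The extent of the deletion was not tested. MTAP, the methylthioadenosine phosphorylase gene next to CDKN2A, had 19 counts in all, at most 0.980 CPM. CDKN2B-AS1, the long noncoding RNA also called ANRIL, which overlaps CDKN2B on the other strand, had 497 counts, 3.35 to 6.90 CPM with a median of 5.16. MIR31HG on the MTAP side had 6.97 to 19.3 CPM, and DMRTA1 on the CDKN2B side 163 counts in all. IFNE had 31 counts in all.

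CDKN3 (ENSG00000100526, chromosome 14, 54397007 to 54420218) had the highest mean level of the 6 genes. It had 124, 130 and 72.0 CPM in WT doxycycline 1 to 3, against 127, 70.6 and 126 CPM in WT control 1 to 3. The Y273F libraries had 71.0, 128 and 144 CPM with doxycycline, against 149, 122 and 132 CPM in control. Libraries 2, 6 and 10 held the 3 low values, and the other 9 lay at 122 to 149 CPM. The log2 fold change was 0.01 (SE 0.30) in the WT line, -0.23 (SE 0.30) in the Y273F line and 0.31 (SE 0.30) between the controls of the lines, with a difference of the effects of 0.23 (SE 0.43). Without libraries 2, 6 and 10 the first 3 were 0.00 (SE 0.12), 0.02 (SE 0.11) and 0.08 (SE 0.11), the difference was -0.02 (SE 0.17), and no adjusted p was under 0.05 with edgeR.

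**Figure D2:**
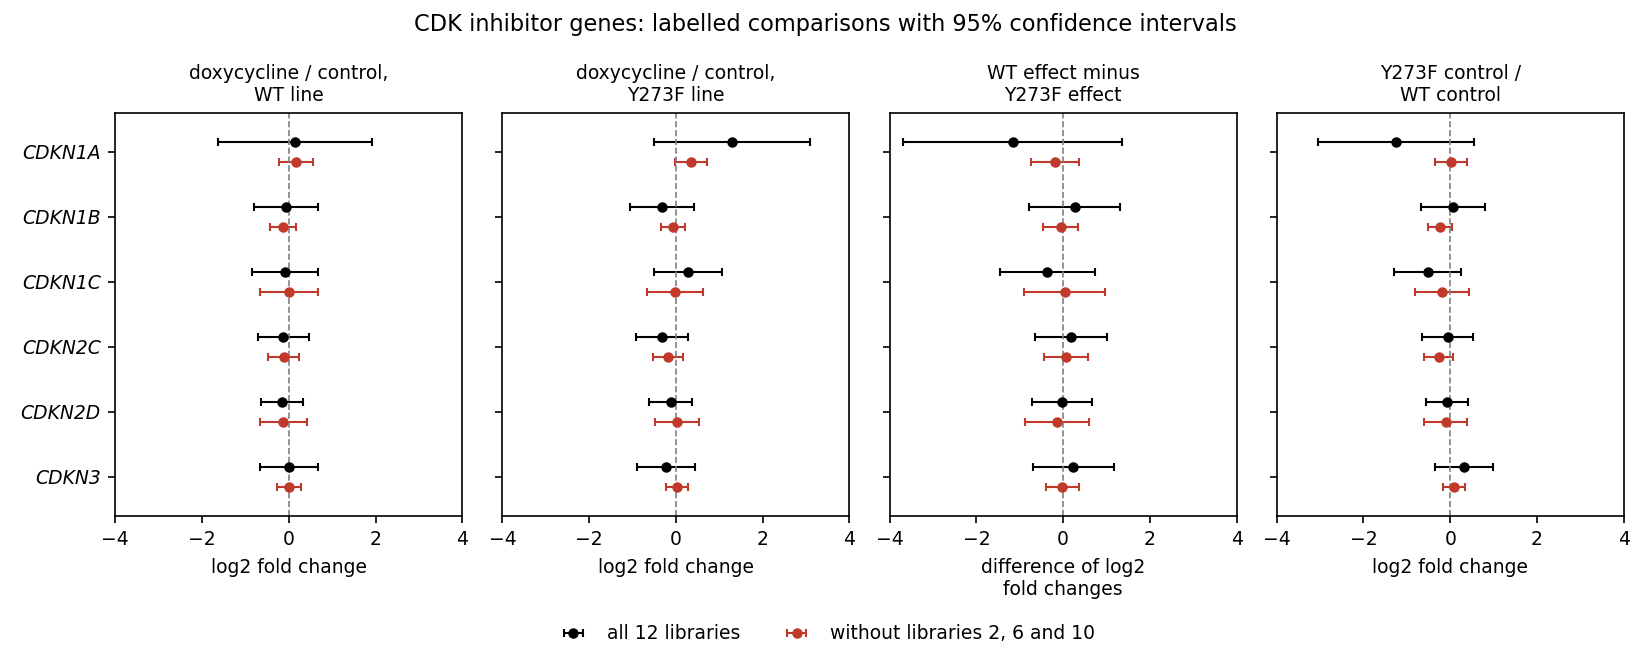
Log2 fold changes (horizontal axis; for the third panel a difference of log2 fold changes) of the 6 tested genes in the 4 labelled comparisons, with 95% confidence intervals from edgeR, with all 12 libraries (black) and without libraries 2, 6 and 10 (red). All intervals include 0, and for CDKN1A the Y273F value is 1.30 with all libraries and 0.35 without the 3.

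By library set the same genes are described with no test, since the sets are not labelled groups and were proposed with these values known. In libraries 2, 6 and 10 CDKN1A had 253, 273.004 and 238 CPM, against 42.6 to 62.3 CPM in the other 9, and the nearest libraries of the 2 sides lay 3.82-fold apart. Its median was 4.79-fold that of the other 9, and 3.87% of tested genes had a larger median shift in either direction. CDKN1C was also higher, at 8.69 to 10.2 CPM against 4.25 to 6.59 CPM, 1.32-fold apart at the nearest. Their Poisson intervals overlap, with 5.68 to 13.0 CPM in library 10 and 5.02 to 8.51 CPM in library 1.

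3 genes were lower in libraries 2, 6 and 10 than in all of the other 9. CDKN1B had 27.1 to 36.0 CPM there, against 52.7 to 71.9 CPM, and CDKN3 had 70.6 to 72.0 CPM, against 122 to 149 CPM. CDKN2C had 23.5 to 26.5 CPM, against 29.5 to 46.9 CPM, only 1.11-fold apart at the nearest. CDKN2D overlapped, at 9.14 to 12.9 CPM against 9.67 to 15.8 CPM. Of the 6 genes, 5 thus did not overlap, 2 higher and 3 lower, where 34.1% of all tested genes did not (18.5% higher and 15.6% lower). In a bulk sample, fewer cells with an mRNA and less of it per cell cannot be told apart.

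**Figure D3:**
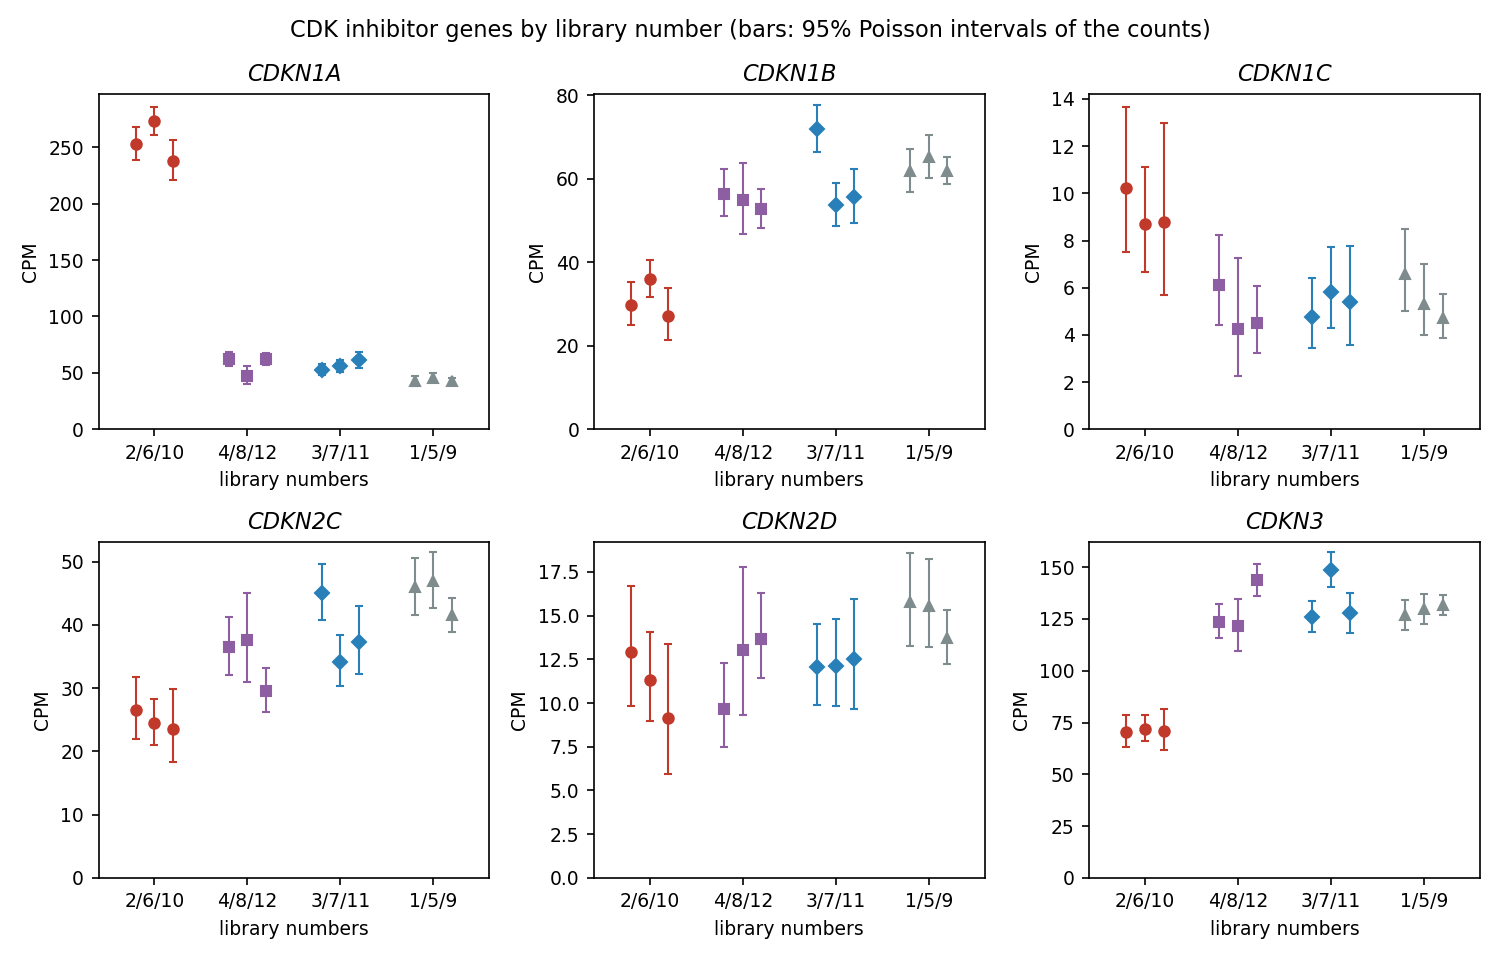
CPM (vertical axis, from 0) of the 6 genes in each library, by library set along the horizontal axis with libraries in the order of their numbers; bars are 95% Poisson intervals of the counts and cover counting error only. Libraries 2, 6 and 10 lie apart from the other 9 for CDKN1A (238 to 273.004 against 42.6 to 62.3 CPM), CDKN1B and CDKN3, while CDKN2D overlaps.

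Against libraries 1, 5 and 9 alone, all 6 genes of libraries 2, 6 and 10 were without overlap, 2 higher and 4 lower, where 54.2% of all tested genes were. The median was 5.88-fold as high for CDKN1A and 1.65-fold for CDKN1C. It was 2.08-fold lower for CDKN1B, 1.88-fold for CDKN2C, 1.83-fold for CDKN3 and 1.38-fold for CDKN2D, whose nearest libraries were only 1.06-fold apart. Against libraries 4, 8 and 12, 5 of 6 genes did not overlap, 2 higher and 3 lower, where 47.0% of all genes did not. These comparisons share libraries 2, 6 and 10.

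In the libraries with the highest DYRK1B CPM the 6 genes overlapped with libraries 3, 7 and 11. Libraries 4, 8 and 12 had 47.4 to 62.3 CPM of CDKN1A, against 52.8 to 61.3 CPM in libraries 3, 7 and 11. CDKN1B was at 52.7 to 56.5 CPM against 53.7 to 71.9 CPM, and CDKN3 at 122 to 144 CPM against 126 to 149 CPM. None of the 6 genes separated these sets, where 17.3% of all tested genes did. Without library 4 the count was 2, and without library 8 or 12 it was 1. Smaller sets overlap less readily, and the share of all genes in these settings is not given here, so the rise is not read as a result about the members.

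Libraries 3, 7 and 11 differed from 1, 5 and 9 in 2 of 6 genes, where 19.3% of all genes did not overlap. CDKN1A was higher, at 52.8 to 61.3 CPM against 42.6 to 45.9 CPM, 1.15-fold apart at the nearest. CDKN2D was lower, at 12.0 to 12.5 CPM against 13.7 to 15.8 CPM. Without library 3 the count was 4, again with fewer libraries and no share of all genes beside it.

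Within the Cip/Kip group the balance of genes in libraries 2, 6 and 10 lay outside its range in the other 9. CDKN1A made up 85.9% to 86.9% of the summed Cip/Kip CPM in libraries 2, 6 and 10, 44.5% to 52.1% in 4, 8 and 12, 40.8% to 50.2% in 3, 7 and 11, and 38.6% to 39.4% in 1, 5 and 9. Sets 4/8/12 and 3/7/11 overlapped, and 1/5/9 lay below both. There were 7.58 to 8.81 CDKN1A tags per CDKN1B tag in libraries 2, 6 and 10, against 0.686 to 1.18 in the other 9, a ratio within a library that no scaling between libraries can move. The summed Cip/Kip CPM was 274 to 318 there, against 106 to 129 CPM elsewhere. The summed INK4 CPM (CDKN2C and CDKN2D) was 32.7 to 39.4 there, against 43.2 to 62.5 CPM elsewhere.

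**Figure D4:**
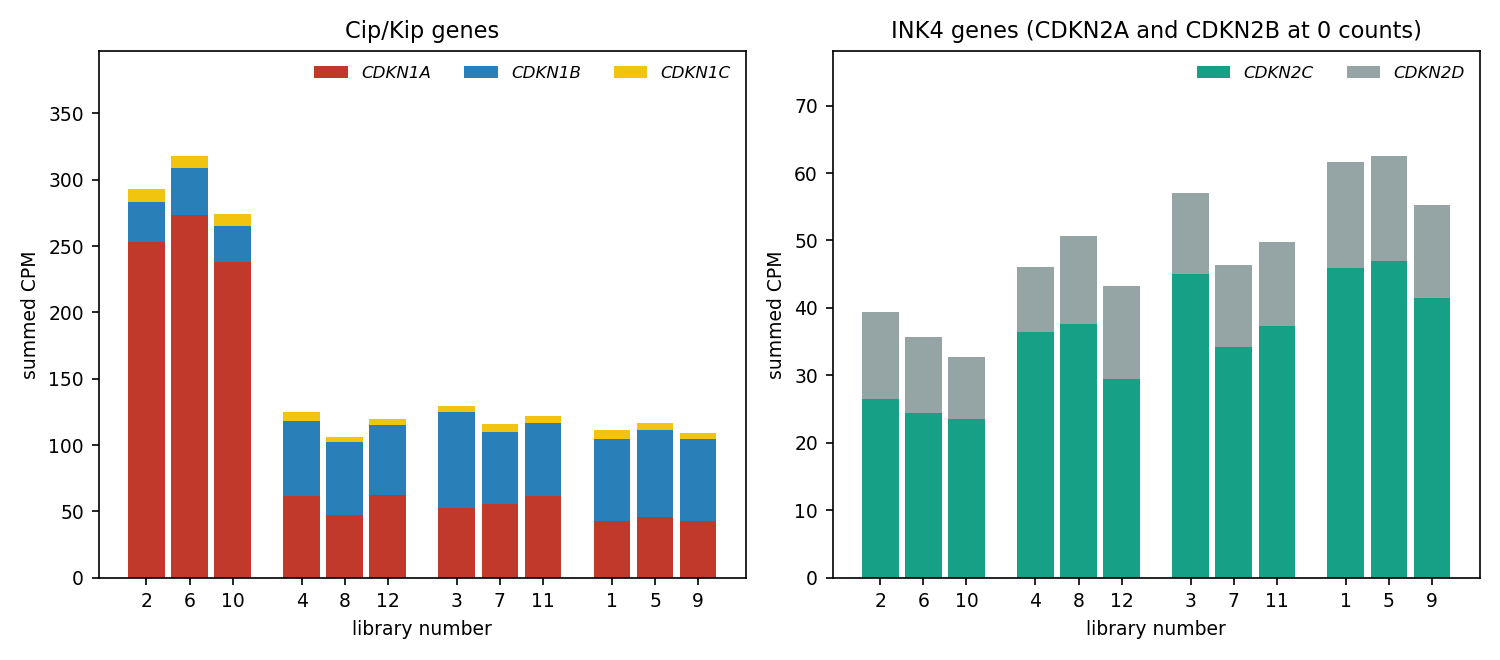
Summed CPM (vertical axis) of the Cip/Kip genes (left) and of the INK4 genes (right) in each library, ordered by library set along the horizontal axis and stacked by gene. CDKN1A fills 85.9% to 86.9% of the Cip/Kip bar in libraries 2, 6 and 10 and at most 52.1% in the other 9, while the INK4 bars are lowest in libraries 2, 6 and 10.

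Genes with a like pattern were ranked by the mean absolute difference of their centred log2 CPM over the 12 libraries, among 10579 genes with a mean of at least 5 CPM, for the 4 genes whose log2 CPM spanned at least 1. Nearest to CDKN1A were FSTL1 (0.13), FHL2 (0.15) and DOCK4 (0.16). FSTL1, a secreted glycoprotein gene, had 142 to 172 CPM in libraries 2, 6 and 10 and 26.1 to 44.0 CPM in the other 9. FHL2, a LIM domain protein gene, had 94.9 to 104 CPM there and 19.0 to 24.5 CPM in the others. Nearest to CDKN1B were MTHFD2L (0.07), SMIM14 (0.09) and MYLIP (0.09), to CDKN1C FAM50A, TMEM92 and LMNA (0.11 to 0.12), and to CDKN3 CENPN, RRM2 and NUP85 (0.07 each). RRM2, a subunit of ribonucleotide reductase needed for DNA synthesis, had 111 to 112 CPM in libraries 2, 6 and 10 and 180 to 207 CPM in the others.

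The CDKs and cyclins that these inhibitors bind were described from a list of 13 genes, of which 11 were tested. By labels 0 of 11 passed edgeR's test in any comparison, with a median log2 fold change of -0.06 for doxycycline in the WT line and -0.01 in the Y273F line, against 0.00 and 0.01 over all genes. By set, 3 were higher and 7 lower in libraries 2, 6 and 10 than in all of the other 9, where 18.5% of all tested genes were higher and 15.6% lower. Of the targets of the INK4 proteins, CDK6 had 109 to 126 CPM there, against 59.8 to 94.4 CPM. CDK4 had 91.5 to 109.28 CPM, against 109.35 to 127 CPM. Its nearest libraries were almost equal and its median was 1.17-fold lower, so its place among the 7 lower genes is marginal. The D cyclins CCND1 (239 to 255 CPM against 145 to 210 CPM) and CCND3 (132 to 147 CPM against 55.3 to 117 CPM) were higher. The S phase and mitotic partners were lower, with CDK2 at 77.7 to 88.6 CPM against 109 to 169 CPM, CDK1 at 77.3 to 90.5 CPM against 158 to 186 CPM and CCNB1 at 115 to 139 CPM against 148 to 194 CPM. CCNE2, CCNA2 and CCNB2 were also lower, and CCNE1 overlapped. CCND2 and CCNA1 were too low to test.

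**Figure D5:**
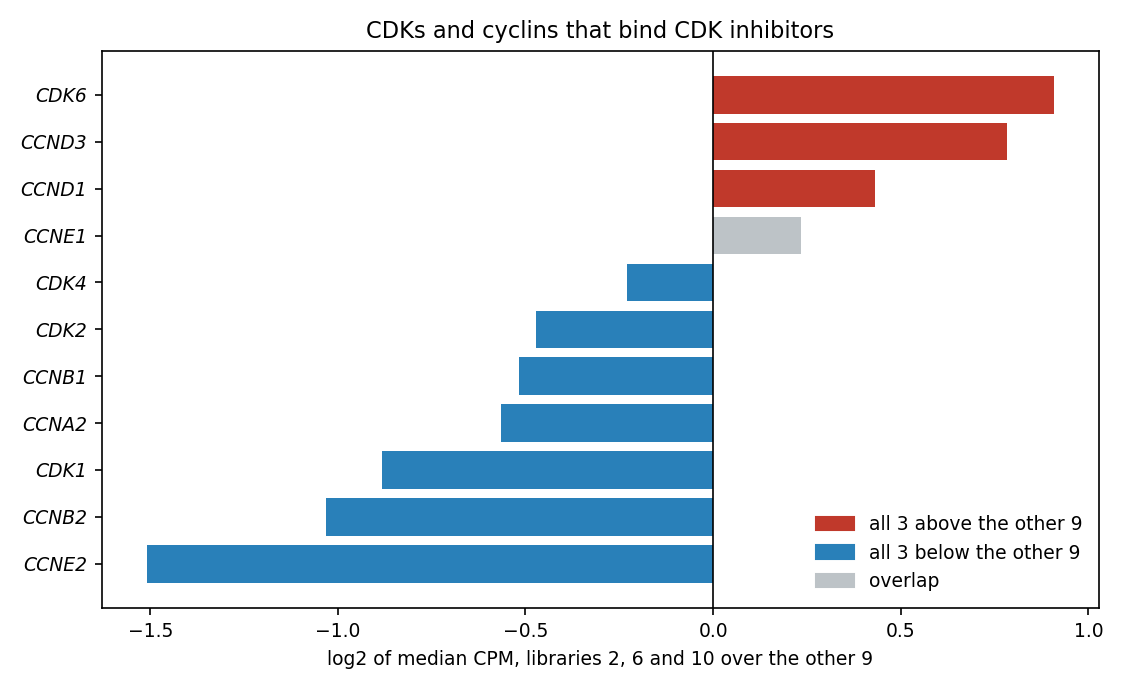
Log2 ratio (horizontal axis) of the median CPM in libraries 2, 6 and 10 over that in the other 9, for the 11 tested CDK and cyclin genes; red and blue bars are genes whose 3 libraries all lie above or all below the other 9, grey overlaps. CDK6, CCND3, CCND1 and, overlapping, CCNE1 lie above 0, and CCNE2 lies lowest, at -1.51.

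Of 13 tested genes for pocket proteins, E2F factors and MuvB subunits, 1 (E2F4) was higher and 3 (E2F2, LIN9 and RBBP4) were lower in libraries 2, 6 and 10. That is 4 of 13 without overlap, near the 34.1% of all tested genes, with RBBP4 at 51.5 to 65.5 CPM against 72.7 to 93.4 CPM and TFDP1 overlapping. RB1 itself overlapped, at 19.0 to 23.8 CPM against 22.4 to 32.0 CPM. Of 18 tested transcription regulators of CDK inhibitor genes, 3 (MDM2, SMAD3 and KLF6) were higher and 3 (MDM4, EZH2 and SUZ12) lower, which is also near that 34.1%. SMAD3, a mediator of TGF-beta signals to CDKN1A and CDKN2B, had 233 to 252 CPM against 122 to 185 CPM, and SUZ12, a Polycomb subunit, 126 to 131 CPM against 143 to 168 CPM. MDM2, a ubiquitin ligase gene, had 153 to 161 CPM against 75.1 to 93.6 CPM. RB1 and MDM2 were picked after their values were seen. No gene of either list passed the labelled tests.

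Of 12 tested genes for the turnover of CDK inhibitor proteins, 1 (SKP1) was higher and 2 (CKS1B and DTL) were lower in libraries 2, 6 and 10, a share of the list below the 34.1% of all tested genes. SKP1, a scaffold of the SCF ubiquitin ligase, had 513 to 582 CPM against 425 to 505 CPM. CKS1B, the cofactor with which SKP2 recognises p27, had 96.8 to 103 CPM against 164 to 263 CPM. SKP2 itself, chosen after its values were seen, overlapped at 24.6 to 28.1 CPM against 21.9 to 35.5 CPM. Among 7 kinases that phosphorylate p21 or p27, none was higher and 1 was lower, again a share below 34.1%. It was DYRK1A, at 21.8 to 24.0 CPM against 26.5 to 38.3 CPM, and AKT2 and CSNK2A1 overlapped. All 8 proliferation markers were lower, where 15.6% of all tested genes were. TOP2A had 903 to 1165 CPM against 1210 to 1910 CPM and PCNA 135 to 172 CPM against 244 to 309 CPM. CCNB1, 1 of the 8, is also counted among the lower CDK and cyclin genes above. No gene of these lists passed the labelled tests.

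Markers of cell identity moved with the same libraries, in which 18.5% of all tested genes were higher and 15.6% lower than in the other 9, and their part in the values of the CDK inhibitor genes was not tested. Of 6 epithelial markers, 4 (KRT8, KRT18, KRT19 and CLDN4) were higher and 1 (CDH1) was lower in libraries 2, 6 and 10. The summed level was 7984 to 10996 CPM against 3029 to 4568 CPM. Most of it came from KRT18, at 6114 to 8457 CPM against 2258 to 3356 CPM, and KRT8, at 1773 to 2445 CPM against 666 to 1302 CPM. CDH1 had 24.3 to 30.2 CPM against 43.4 to 65.6 CPM. EPCAM overlapped, at 4.57 to 6.68 CPM against 4.69 to 31.9 CPM, with a median 2.51-fold lower in libraries 2, 6 and 10. Of 7 genes typical of A549, 4 (AKR1C1, AKR1C2, ALDH3A1 and MUC5AC) were lower and none was higher, with a sum of 15857 to 16418 CPM against 17703 to 23583 CPM. The 2 most abundant of them overlapped, ALDH1A1 at 6303 to 7362 CPM against 5724 to 6688 CPM and KRT81 at 4183 to 4969 CPM against 4263 to 5667 CPM. Of 7 fibroblast markers 2 were tested and both were higher, COL1A1 at 135 to 195 CPM against 13.1 to 30.2 CPM and LUM at 11.3 to 13.6 CPM against 0 to 1.54 CPM, with a list sum of 147 to 210 CPM against 14.2 to 31.6 CPM, while DCN was at 0 in libraries 2, 6 and 10 and COL1A2 at no more than 0.351 CPM there. Endothelial markers summed to at most 0.577 CPM, with VWF and KDR at 0 throughout, and immune markers to 6.46 to 11.6 CPM against 5.70 to 9.32 CPM, with CD3E at 0 and CD14, the 1 tested, overlapping at 5.34 to 10.8 CPM against 4.90 to 8.81 CPM. Of 7 alveolar surfactant markers only ABCA3 was tested, and it overlapped, with a list sum of 18.7 to 20.7 CPM against 16.1 to 22.4 CPM and SFTPB at 0.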

How the data were processed

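RNA of 12 A549 libraries was made into QuantSeq FWD V2 3' tag libraries, per the labels' protocols, and aligned with STAR to GRCh38.p14, per the submitters' processing notes. Neither the STAR version nor the annotation is given in the sources used here. Files deposited by the authors hold unnormalised read counts of each gene, by strand, and a merged count table. The transcript-strand counts were used; it was checked that the 8 members' rows in the merged table equal them. Reads in no gene (35.5% to 43.2% of reads) stayed out of totals and tests. Coordinates and promoters are from RefSeq.

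Genes were filtered with filterByExpr (minimum count 10), scaled with TMM and tested by quasi-likelihood in edgeR 4.0.16 under R 4.3.3. The model had a mean for each of 4 labelled groups and covered all 13838 genes, at an adjusted p of 0.05. The procedure was tested on simulated data. Log2 fold changes come from that fit; log2 CPM for likeness added 0.5 counts. The series text describes separate cell populations grown in parallel, so p-values measure the spread between libraries of a labelled group. For each gene the groups share a single estimate of this spread. It includes the distance of libraries 2, 6 and 10 from the others of their groups, and so enters every comparison. For CDKN1A in the WT line the SE was 0.81 with all libraries and 0.18 without these. The absence of genes past the threshold is therefore not read as an absence of change. No 2 libraries agreed within sampling noise. The lowest chi-square per degree of freedom was 3.83, between Y273F control 1 and Y273F doxycycline 2, which are of different labelled groups. Within a labelled group the lowest was 6.24. Poisson intervals and the floor of 3 counts cover counting error only. The 95% confidence intervals of log2 fold changes come from the edgeR fit and include the spread between libraries.

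The members, gene lists and library sets were chosen with earlier results of these data known. Named genes are the members, the 2 tested genes with the highest mean CPM of each list, the 3 genes most like each member spanning at least 1 log2 unit, and genes within 500000 bases of CDKN2A. Other partner, regulator and marker genes were picked with their values in view. Alternatives were DESeq2 1.42.0 size factors and Wald test, no filter, a filter of 50 counts in 3 libraries, a term for the replicate number, the merged table, leaving out each library and, added after seeing the data, leaving out libraries 2, 6 and 10. Some members of these lists are not reported here.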

Additional observations from a re-analysis of the deposited data

How the results depend on the processing

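Of 456 alternative values for the 24 log2 fold changes of the 6 genes, 413 kept their direction and 43 reversed, none passed the threshold, and the lowest adjusted p was 0.8054. The scalings, filters, the DESeq2 Wald test and the merged table reversed none; 9 reversed without libraries 2, 6 and 10 and 34 with 1 library left out. The causes were not tested.

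Without libraries 2, 6 and 10 the reversed values were 0.0098 (CDKN1C, WT line), -0.025 (CDKN1C), 0.017 (CDKN2D) and 0.019 (CDKN3) in the Y273F line, -0.059 (CDKN1B), 0.035 (CDKN1C) and -0.015 (CDKN3) for the difference, and 0.012 (CDKN1A) and -0.23 (CDKN1B) between the lines.

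With 1 library left out, the lowest and highest values in the WT line were -1.10 and 1.40 (CDKN1A), -0.35 and 0.19 (CDKN1B), -0.31 and 0.24 (CDKN1C), -0.37 and 0.085 (CDKN2C) and -0.22 and 0.23 (CDKN3). In the Y273F line they were -0.018 and 0.49 (CDKN1C), -0.25 and 0.014 (CDKN2D) and -0.43 and 0.016 (CDKN3). For the difference they were -2.39 and 0.11 (CDKN1A), -0.024 and 0.52 (CDKN1B), -0.050 and 0.41 (CDKN2C), -0.25 and 0.10 (CDKN2D) and -0.0099 and 0.46 (CDKN3). Between the lines they were -1.64 and 0.020 (CDKN1A), -0.23 and 0.31 (CDKN1B), -0.27 and 0.071 (CDKN2C) and -0.14 and 0.060 (CDKN2D).

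The number of genes past the threshold ranged from 0 to 1 for doxycycline in the Y273F line (1 without Y273F control 2, Y273F doxycycline 2 or 3), for the difference (1 without Y273F doxycycline 2 or 3) and between the lines (1 without Y273F control 2). The genes were SLX1B, which has a near-identical copy, RPL32P18 and FKBP1C, named after their values were seen; none is a CDK inhibitor gene. With 1 library left out, members that did not overlap ranged from 0 to 2 for 4/8/12 against 3/7/11 and from 2 to 4 for 3/7/11 against 1/5/9. Smaller sets overlap less readily, and the share of all genes in these settings is not given here.

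The replicate numbers did not pair the libraries: same-number correlations ran from -0.663 to 0.54, with 3 of 18 over 0.1. With the replicate number as a block, 0 genes passed in each comparison and CDKN1A was 0.14 in the WT line and 1.30 in the Y273F line. CDKN1C had 13 to 107 counts per library, the fewest of the 6 genes.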
